A study of Mus musculus with 2 samples.

Results

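The 8 genes followed here mark or build the projection neurons of the deep cortical layers, and they were examined in DNase-seq data of mouse frontal cortex. They are Fezf2, Bcl11b, Tle4, Etv1, Ldb2, Sox5, Crym and Pcp4, all 8 found by name in the GENCODE M21 annotation, out of 21911 protein-coding genes. For each gene, all peaks and footprints were taken that overlap its body or the 10 kb flanking it, and a peak within 500 bp of any annotated transcription start site (TSS) was called a promoter peak. The tissue came from female F1 mice of the strain B6CASTF1/J, a cross of B6 and CAST, aged 36 days and supplied by The Jackson Laboratory; the labels name no treatment. Both libraries belong to this 1 group, as biological replicate 2 and biological replicate 1. They have separate tissue sample records but the same donor label, and no source used here says whether 1 animal or several were used, so the spread between them may be technical.

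In DNase-seq, the enzyme DNase I cuts chromatin where the DNA is not wrapped or covered by protein, and stretches with many cuts are called as peaks of accessible chromatin. A footprint is a short run within such chromatin that is cut less than its surroundings, as happens where a protein sits on the DNA. Projection neurons of the deep layers send axons out of the cortex, to the thalamus, brainstem and spinal cord. The zinc-finger factor Fezf2 stands high in the genetic programme that gives those neurons their identity, Bcl11b acts downstream of it, and Sox5 controls the timing with which the deep-layer types arise. The tissue was taken after these neurons had formed, and it holds all cortical layers, glia and vessels together.

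The authors deposited 2 peak lists per library, and the shorter one is used unless the longer list is named. It held 66512 peaks in replicate 2 and 29700 in replicate 1, with a median signal of 1.17 and 1.34. Signal is the authors' read-depth normalized density of a peak, and its values rise in steps of 0.009709 (replicate 2) and 0.01178 (replicate 1). If a step is 1 tag, the libraries held 103 M and 84.9 M tags (M for mega), a ratio of 1.21. As a check of the labelled tissue, 6 of 7 cortical markers had a promoter peak in replicate 2 and 3 of 7 in replicate 1, against 1 of 8 and 0 of 8 markers of other brain regions and organs. The cortical shares are 85.7% and 42.9%, where all protein-coding genes had 60.0% and 51.0%, so in replicate 1 the cortical markers were below that share. The exception in replicate 2 was the liver gene Alb. Interneuron markers had a promoter peak in 2 of 8 genes in replicate 2 and 0 of 8 in replicate 1, and markers of glia and vessels in 3 of 6 and 1 of 6. With 2 libraries of 1 condition no test between groups exists, so every comparison below is a description.

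All 8 genes had a promoter peak in replicate 2 and 6 of 8 in replicate 1, the exceptions being Fezf2 and Crym. The same call was met by 60.0% of protein-coding genes in replicate 2 and 51.0% in replicate 1. A gene with more annotated TSSs has more chances of this call. The 8 genes have 43 TSSs, 13 of them in Etv1 and 12 in Sox5, and the part of TSS number was not tested. A promoter peak in both replicates was found for 6 of 8 genes and for 50.8% of protein-coding genes. The call of Bcl11b was marginal, since its peak touched only the edge of the promoter window, with its midpoint at -567 bp. With a promoter window of 250 bp, or with the peak midpoint required in the window, Bcl11b lost its call. That left 7 genes in replicate 2 and 5 in replicate 1. The longer lists gave the same 8 and 6 genes, against 64.4% and 58.2% of protein-coding genes. Where the replicate 2 list was cut to the length of the replicate 1 list by taking its highest signals, 6 genes kept a promoter peak in replicate 2, against 6 in replicate 1. The strongest promoter peaks of Fezf2 and Crym in replicate 2 were at the 35.0 and 28.0 percentile of that list and were lost there. A footprint within 500 bp of a TSS was present for 8 genes in replicate 2 and 6 in replicate 1, against 62.3% and 55.5%. In bulk tissue, few cells with open chromatin and weak opening in many cells cannot be told apart.

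The number of peaks in the gene windows differed between the replicates, at promoters and elsewhere. The 8 windows held 63 peaks in replicate 2 and 16 in replicate 1, a ratio of 3.94, where the summed count over all protein-coding genes gave 1.89. Of these, 16 and 8 were promoter peaks and 47 and 8 lay elsewhere. The ratio differed by gene, and the gap was widest at Sox5 and Fezf2. Sox5 had 26 and 3 peaks (8.67) and Fezf2 11 and 0. For the other genes the ratio ran from 1 (Tle4) to 4 (Bcl11b). The median gene of the 8 had 5 peaks in replicate 2 and 2 in replicate 1, against 2 and 1 for protein-coding genes. The gene bodies are long, with a median span of 92.2 kb against 17.4 kb for protein-coding genes, and a longer window has more room for peaks. Footprints numbered 238 in replicate 2 and 73 in replicate 1.

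**Figure D1:**
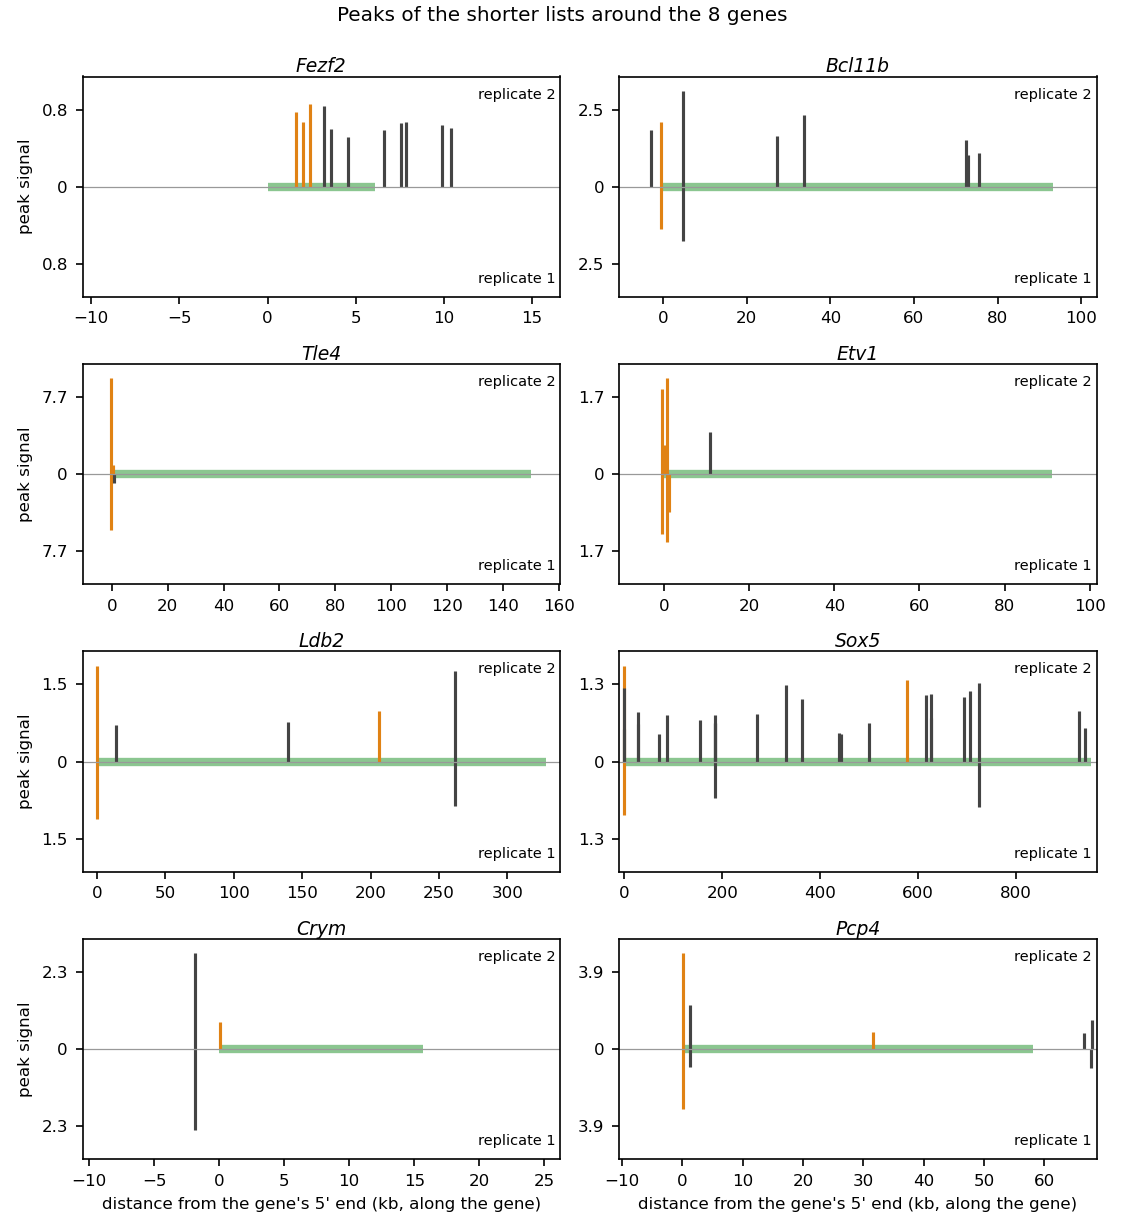
Peaks of the shorter lists around each of the 8 genes, by distance of the peak midpoint from the gene's 5′ end in kb along the gene (x) and authors' signal (y, own scale per panel), with replicate 2 drawn upward and replicate 1 downward; orange lines are promoter peaks, dark lines other peaks and the green bar the gene body. Fezf2 has 11 peaks in replicate 2 and 0 in replicate 1, and the 26 peaks of Sox5 in replicate 2 are spread over its body where replicate 1 has 3.

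Fezf2, the zinc-finger factor that specifies neurons projecting below the cortex, was the one gene of the 8 with no peak at all in 1 of the libraries. Peaks in replicate 2 with none in replicate 1 were found for 10.6% of protein-coding genes. It lies on the minus strand at chr14:12342094-12348189 (all coordinates are mm10). Replicate 2 had 11 peaks in its window and replicate 1 had 0. Their signal in replicate 2 was between 0.544 and 0.903, with a median of 0.689, so all 11 lay below the median of that list. Of the 11, 3 were promoter peaks and stood at the inner pair of TSSs, with midpoints at 71 bp (0.903), -205 bp (0.709) and -595 bp (0.816) from the nearest TSS, where a minus sign means upstream. No peak of any list lay within 500 bp of the 5′-most TSS, 2230 bp further upstream. Another 3 peaks overlapped coding exons (0.874, 0.631 and 0.544), and 5 lay beyond the 3′ end, at 6.63 to 10.4 kb from the 5′ end of the gene, with signals of 0.621 to 0.699. The strongest promoter peak is given on the genome's plus strand (GRCm38), 5′ to 3′, at chr14:12345661-12345886, because it is the strongest peak at any TSS of this gene, with the single replicate 2 footprint in it in capitals.
Fezf2 promoter: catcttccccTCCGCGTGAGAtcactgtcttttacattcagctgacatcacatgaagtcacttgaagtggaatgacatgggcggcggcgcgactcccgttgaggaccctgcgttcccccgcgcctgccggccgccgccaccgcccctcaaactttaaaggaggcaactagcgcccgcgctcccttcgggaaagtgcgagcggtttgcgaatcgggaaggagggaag

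Replicate 1 had no peak in the longer list, no footprint and no position with a false discovery rate (FDR) of cleavage of 0.05 or less anywhere in the 26.1 kb window of Fezf2. Replicate 2 had 15 peaks in the longer list, 21 footprints and such positions over 22.8% of the window, against a median of 2.85% for protein-coding genes. In all, 97 genes, or 0.443%, had as high a cover in replicate 2, and 5 of these had none in replicate 1: Fezf2 (22.8%), Otx1 (42.4%), Dlx5 (30.9%), Foxa1 (28.9%) and Cdk5r1 (25.1%). In the class of genes with a span like that of Fezf2, 0.776% had as many peaks in replicate 2. Having 11 or more peaks in replicate 2 and 0 in replicate 1 was met by 19 genes of all, or 0.0867%. These combined counts, and the genes named by them, were chosen after the values of Fezf2 were seen. A window without peaks in replicate 1 was common in itself, at 7099 genes or 32.4%, and their median number of replicate 2 peaks was 0. Each Fezf2 peak is weak: the strongest held 93 steps of signal, with an exact Poisson interval of 75.1 to 114 at 95% if a step is 1 tag, which covers counting error only. The highest −log10 FDR in the window was 6.94 in replicate 2, at 2503 bp from the 5′ end. The locus was thus called as accessible in replicate 2 and was not detected in replicate 1.

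**Figure D2:**
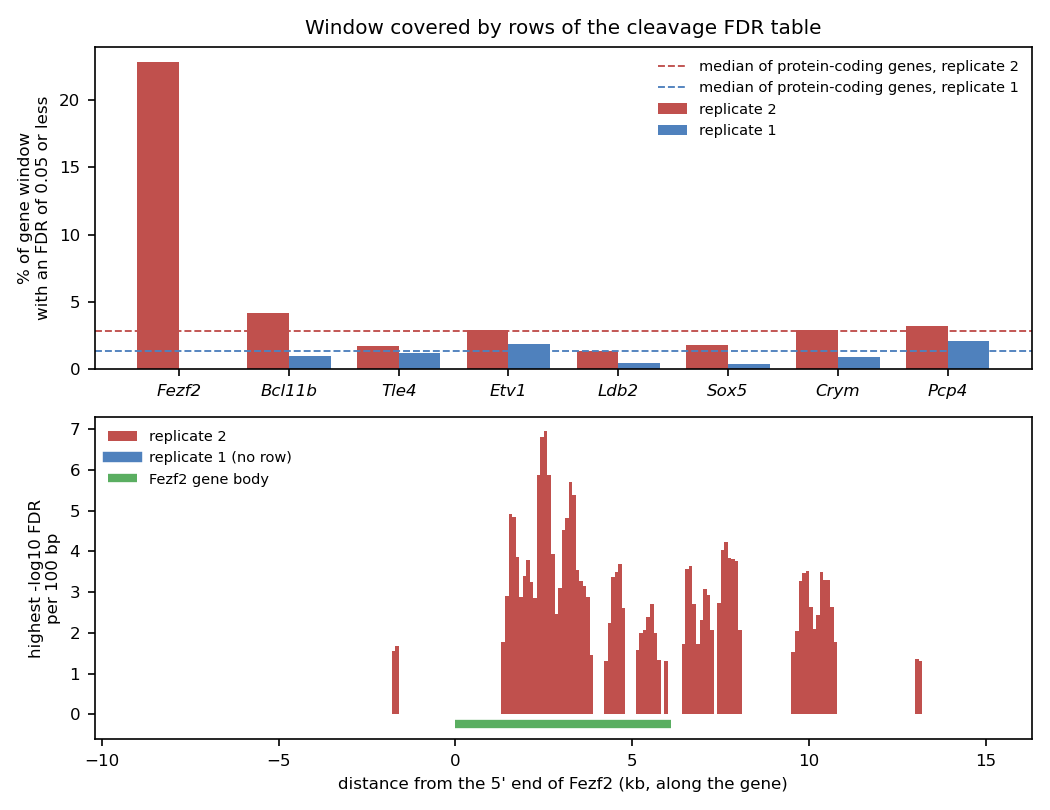
Upper panel, percent of each gene window with an FDR of cleavage of 0.05 or less, replicate 2 left of replicate 1, with dashed medians over protein-coding genes (2.85% and 1.39%); lower panel, highest −log10 FDR per 100 bp around Fezf2 by distance from its 5′ end in kb. Fezf2 reaches 22.8% in replicate 2 and has no position in replicate 1, and the replicate 2 profile covers the inner TSSs, the exons and the 3′ flank.

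Bcl11b, also called CTIP2, is the zinc-finger factor that acts downstream of Fezf2 in the outgrowth of corticospinal axons. It lies at chr12:107910403-108003602 on the minus strand and had 8 peaks in replicate 2 and 2 in replicate 1. The promoter peak, with its midpoint at -567 bp from the 5′ end, gave 2.12 in replicate 2 and 1.39 in replicate 1. It reached only the edge of the promoter window, and its replicate 2 footprints, at -555 and -570 bp, lay outside that window. The strongest peak of the gene lay in an intron, 4.67 kb inside the gene, with signals of 3.13 and 1.79. Both are shared, and in both peaks replicate 2 was the higher library. The 6 other replicate 2 peaks had no partner in replicate 1 and signals of 1.05 to 2.35. They stood at -2.83 kb and in introns at 27.1, 33.6, 72.4, 72.9 and 75.5 kb from the 5′ end; 3 of the 6 overlapped the longer list of replicate 1. The wider of the footprints in the intronic peak was 28 bp in replicate 2 and 20 bp in replicate 1, and the calls overlap. The promoter and the intronic peak are shown because they are the elements of this gene found in both libraries, on the plus strand, at chr12:108004101-108004238 and chr12:107998841-107999020, with replicate 2 footprints in capitals.
Bcl11b promoter: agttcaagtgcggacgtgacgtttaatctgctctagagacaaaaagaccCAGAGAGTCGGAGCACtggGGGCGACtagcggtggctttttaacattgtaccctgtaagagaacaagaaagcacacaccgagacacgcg
Bcl11b intron: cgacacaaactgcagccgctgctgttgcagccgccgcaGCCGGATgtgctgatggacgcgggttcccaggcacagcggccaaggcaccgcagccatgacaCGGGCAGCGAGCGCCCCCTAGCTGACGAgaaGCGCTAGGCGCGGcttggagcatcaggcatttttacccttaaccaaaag

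Just outside the promoter peak of Bcl11b, a 7 bp footprint of replicate 2 lay at chr12:108004080-108004086. It held the midpoint of the letters ACAATG, a SOX recognition sequence, but ended within them. A replicate 1 footprint overlapped that footprint and the rest of the letters, but not their midpoint. Letters are counted here to, and called centred in, the footprint that holds their midpoint, which need not hold all of them. Bcl11b had 39 footprints in replicate 2 and 11 in replicate 1, of which 6 in each overlapped one of the other library.

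Tle4 is a Groucho-family corepressor, a protein that binds no DNA itself and is recruited by factors such as Fezf2, and it marks corticothalamic neurons. It lies at chr19:14448150-14598051 on the minus strand and gave the strongest peak of the 8 genes in both libraries. The promoter peak, with its midpoint at -369 bp from the TSS, reached 9.56 in replicate 2 and 5.63 in replicate 1, at the 99.8 and 99.5 percentile of the lists. In steps these are 985 in replicate 2 (exact Poisson interval 924 to 1048) and 478 in replicate 1 (436 to 523). The second peak, just inside the gene, had 0.884 in both. Its replicate 1 call, 103 bp wide, fell 839 bp from the TSS and outside the promoter window, while the replicate 2 call was 729 bp wide and reached into that window. The shorter lists had no other peak in the 149.9 kb body or its flanks. The promoter peak held 8 footprints in each library, and the highest −log10 FDR there was 72.3 in replicate 2 and 38.2 in replicate 1. It is shown because it holds 8 footprints in each library, as the central 300 bp of the peak at chr19:14598271-14598570, plus strand, replicate 2 footprints in capitals.
Tle4 promoter: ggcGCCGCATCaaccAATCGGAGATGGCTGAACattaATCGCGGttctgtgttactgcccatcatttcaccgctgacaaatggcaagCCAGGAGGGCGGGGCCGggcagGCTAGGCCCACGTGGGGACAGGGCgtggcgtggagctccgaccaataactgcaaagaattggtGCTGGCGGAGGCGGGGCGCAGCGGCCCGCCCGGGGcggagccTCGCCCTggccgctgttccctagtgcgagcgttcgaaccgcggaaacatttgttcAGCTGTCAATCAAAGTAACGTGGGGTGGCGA

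The recognition letters of SP factors, GGGCGGG, or their reverse complement, were centred in 2 of the replicate 2 footprints, which were 17 and 35 bp wide. The same copies of the letters lay in footprints of 14 and 43 bp in replicate 1, and replicate 1 had another match centred in a footprint at -204 bp from the TSS. A MEIS sequence, CTGTCA, lay in a 34 bp footprint of replicate 2 that overlapped a footprint of replicate 1. No replicate 1 footprint reached the letters themselves.

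Etv1, also called ER81, is an ETS-domain factor of corticofugal and corticostriatal neurons. It lies at chr12:38779380-38870484 on the plus strand and has 13 annotated TSSs, of which 6 in replicate 2 and 8 in replicate 1 had a peak within 500 bp. The peak centred at -560 bp from the 5′ end had 1.89 in replicate 2 and a partner of 1.34 in replicate 1. The peak centred 0.8 kb inside the gene, over a cluster of alternative TSSs, had 2.14 and 1.52. Replicate 1 had a further weak peak of 0.848 at 1.19 kb, the only one of its 16 peaks without a partner in replicate 2. Replicate 2 had a weak peak of 0.651 between the strong ones, found in the longer list of replicate 1. An intronic peak 10.8 kb from the 5′ end had 0.951 in replicate 2 and was absent from the shorter list of replicate 1, though the longer list had it. The TSSs at 4090 to 4129, 40163 and 58018 bp from the 5′ end had no peak in any list. The central 300 bp of the second peak, chr12:38780031-38780330 on the plus strand, are shown because the alternative TSSs fall in or beside it, with replicate 2 footprints in capitals.
Etv1 promoter: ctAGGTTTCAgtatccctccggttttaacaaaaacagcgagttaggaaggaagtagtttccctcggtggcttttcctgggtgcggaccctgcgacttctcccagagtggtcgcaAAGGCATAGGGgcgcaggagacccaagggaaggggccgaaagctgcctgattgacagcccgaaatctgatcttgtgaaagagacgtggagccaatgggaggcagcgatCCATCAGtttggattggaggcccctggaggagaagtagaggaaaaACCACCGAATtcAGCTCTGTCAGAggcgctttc

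The last footprint of that sequence, 12 bp wide, holds the MEIS letters CTGTCA and overlapped a footprint of replicate 1. The replicate 1 footprint ended within the letters and left most of them out. Etv1 had 19 footprints in replicate 2 and 11 in replicate 1.

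Ldb2 encodes an adaptor that binds LIM-domain proteins and marks neurons projecting below the cortex. Its body spans 328 kb at chr5:44472132-44799680, minus strand, and it had 5 peaks in replicate 2 and 2 in replicate 1. The promoter peak gave 1.86 in replicate 2 and 1.12 in replicate 1. Deep in the gene, 261 kb from the 5′ end, an intronic peak had 1.75 and 0.872, so that in replicate 2 it was nearly as strong as the promoter. That intronic peak held 6 footprints in replicate 2 and 4 in replicate 1, against 2 and 0 in the promoter peak. A peak at an internal TSS, 205801 bp from the 5′ end, had 0.971 in replicate 2 and was found only in the longer list of replicate 1. The remaining intronic peaks, with 0.767 and 0.709, overlapped no peak of either list of replicate 1. The second of them is wider in the longer list of replicate 2 and there overlaps a longer-list peak of 0.636 in replicate 1. The intronic peak is printed because its footprints outnumber those of the promoter, at chr5:44538121-44538300, plus strand, replicate 2 footprints in capitals.
Ldb2 intron: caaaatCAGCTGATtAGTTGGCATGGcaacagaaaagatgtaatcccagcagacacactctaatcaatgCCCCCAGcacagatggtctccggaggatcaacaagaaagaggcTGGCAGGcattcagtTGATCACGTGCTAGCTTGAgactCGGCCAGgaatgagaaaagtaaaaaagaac

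Its second footprint holds the letters TTGGCA, an NFI site. No footprint of replicate 1 overlapped that one. A replicate 1 footprint in the same peak holds the letters CAGATGG, an E-box of neurogenic bHLH factors.

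Sox5 is a SoxD factor that holds back later neuronal fates while the deep layers form. It is the longest of the 8 genes, 954 kb at chr6:143828425-144781977 on the minus strand, and had 26 peaks in replicate 2 and 3 in replicate 1. Its 5′ promoter peak had 1.65 in replicate 2 and 0.919 in replicate 1. The TSSs under it, and the internal ones at 577550 and 577920 bp with a peak, belong to transcripts not annotated as protein-coding. With TSSs of protein-coding transcripts alone, Sox5 lost its promoter call, which left 7 of the genes in replicate 2 and 5 in replicate 1. An intronic peak 725 kb from the 5′ end had 1.35 and 0.778, and one at 186 kb had 0.66 and 0.636. The other 23 replicate 2 peaks had signals of 0.466 to 1.40. The longer lists held 63 peaks in replicate 2 and 22 in replicate 1. Of the 26 replicate 2 peaks, 14 overlapped the longer list of replicate 1, the 3 shared ones included. The highest of the other 23 peaks lay at an internal TSS 577920 bp from the 5′ end, with 1.40 in replicate 2. Replicate 1 had no peak of either list there, and no position with an FDR of 0.05 or less. The 4 TSSs at 572409 to 572525 bp had a peak in the longer list of replicate 2 alone, and the 4 TSSs at 834871 to 834889 bp had none in any list. In its class of gene span, 2.01% of the genes had as many peaks in replicate 2. That class also holds Tle4 and Ldb2, which are far shorter, and the part of gene length in the count was not tested. Sox5 had 82 footprints in replicate 2 and 14 in replicate 1. The central 300 bp of the 5′ promoter peak, chr6:144781581-144781880 on the plus strand, are shown because a SOX sequence, ACAAAG, lies in a footprint of the SOX gene's own promoter peak; that footprint, 22 bp wide, is the last run of capitals and was called in replicate 2 alone.
Sox5 promoter: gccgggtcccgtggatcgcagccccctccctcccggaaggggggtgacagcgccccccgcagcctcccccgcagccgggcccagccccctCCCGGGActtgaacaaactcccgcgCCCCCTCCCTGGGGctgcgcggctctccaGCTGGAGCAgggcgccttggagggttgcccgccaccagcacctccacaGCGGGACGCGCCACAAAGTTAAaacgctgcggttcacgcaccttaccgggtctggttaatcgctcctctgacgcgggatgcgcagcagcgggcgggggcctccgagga

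A second footprint with ACAAAG stood at the internal TSS of Sox5, also in replicate 2 alone. In all, SOX letters were centred in 5 of 238 footprints in replicate 2 (2.10%) and 0 of 73 in replicate 1, against 0.646% and 0.479% of all footprints in the libraries. Other motifs also differed from all footprints, in either direction and on few matches: MEIS letters were centred in 1.68% of the footprints in replicate 2, against 0.536%, SP letters in 0.84%, against 2.91%, and E-box letters in 0.42%, against 1.2%. None of these shares was tested. The 5 SOX matches belong to Fezf2, Bcl11b, Etv1 and Sox5, which has 2. In Bcl11b and Etv1 the footprint ended within the letters.

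Crym encodes µ-crystallin, a protein that binds thyroid hormone in the cytoplasm and marks corticospinal neurons. It lies at chr7:120186380-120202111 on the minus strand and had 2 peaks in replicate 2 and 1 in replicate 1. Its promoter peak, 86 bp inside the gene, had 0.796 in replicate 2 and no counterpart in either list of replicate 1, nor any position there with an FDR of 0.05 or less. The other peak, upstream at -1.86 kb, was much the stronger, with 2.83 in replicate 2 and 2.40 in replicate 1. That upstream peak also overlaps the promoter window of the neighbouring gene Abca14, which encodes an ABC transporter, so it cannot be assigned to Crym by position alone. The letters CCCTCGTGG, the reverse complement of a CTCF core, lay in its single footprint of 34 bp in replicate 2. In replicate 1 their midpoint lay in a 26 bp footprint that ended within them. Replicate 1 had 3 footprints in the peak, and a second one of 11 bp overlapped the same letters and the same replicate 2 footprint. Both peaks are printed to set the weak promoter beside the strong neighbour, at chr7:120201961-120202090 and chr7:120203881-120204060, plus strand, replicate 2 footprints in capitals.
Crym promoter: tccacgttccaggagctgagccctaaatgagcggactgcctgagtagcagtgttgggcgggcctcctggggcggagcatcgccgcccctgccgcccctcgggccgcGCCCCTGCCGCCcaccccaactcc
Crym upstream: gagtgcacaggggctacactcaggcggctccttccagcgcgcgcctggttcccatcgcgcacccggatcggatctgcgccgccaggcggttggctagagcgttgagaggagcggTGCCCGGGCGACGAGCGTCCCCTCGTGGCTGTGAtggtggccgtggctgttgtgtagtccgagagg

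The letters CGCCCAC, the reverse complement of an EGR sequence, had their midpoint at the last base of the promoter footprint of Crym. That footprint thus left part of the letters out. EGR factors are immediate early factors of active neurons, and the match is a description of the letters only.

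Pcp4 encodes a small calmodulin-binding peptide of corticofugal neurons. It lies at chr16:96467606-96525793 on the plus strand, within the annotated body of Igsf5, and had 5 peaks in replicate 2 and 3 in replicate 1. Its promoter peak, at the TSS, was the second strongest promoter peak of the set, with 4.90 in replicate 2 and 3.06 in replicate 1. A peak 1.24 kb inside the gene had 2.23 and 0.919, the largest replicate difference among the shared peaks (log2 ratio 1.28). A peak 67.9 kb from the 5′ end, beyond the 3′ end, had 1.46 and 0.966. An internal TSS, 32014 bp from the 5′ end, had a peak of 0.874 in replicate 2 and only a longer-list peak in replicate 1. The promoter is shown because it holds the widest footprint of all 8 genes in replicate 2, 44 bp wide with a 42 bp call at the same place in replicate 1, at chr16:96467541-96467740, plus strand, replicate 2 footprints in capitals.
Pcp4 promoter: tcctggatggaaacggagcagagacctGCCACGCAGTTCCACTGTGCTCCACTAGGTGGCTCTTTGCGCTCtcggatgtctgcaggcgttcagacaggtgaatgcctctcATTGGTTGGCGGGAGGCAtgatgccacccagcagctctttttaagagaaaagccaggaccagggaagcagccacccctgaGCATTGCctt

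**Figure D3:**
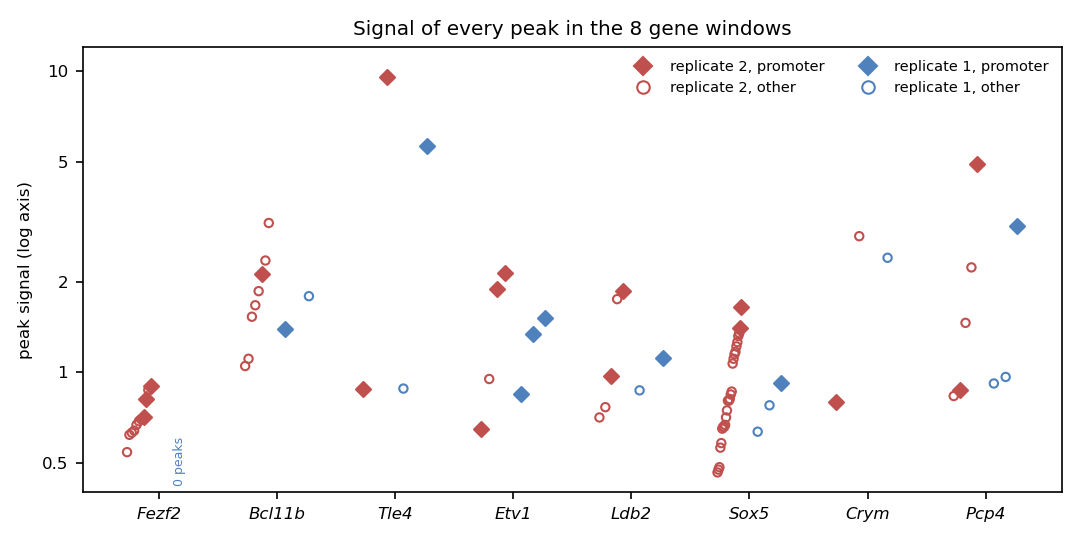
Authors' signal (log axis) of every peak in the window of each gene, replicate 2 left of replicate 1; filled diamonds are promoter peaks and open circles other peaks. Tle4 (9.56 and 5.63) and Pcp4 (4.90 and 3.06) have the highest promoter peaks, and all 11 Fezf2 peaks of replicate 2 lie below 1.

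Ordered by their strongest promoter peak in replicate 2, the genes ran Tle4 (9.56), Pcp4 (4.90), Etv1 (2.14), Bcl11b (2.12), Ldb2 (1.86), Sox5 (1.65), Fezf2 (0.903) and Crym (0.796). In replicate 1 the order was Tle4 (5.63), Pcp4 (3.06), Etv1 (1.52), Bcl11b (1.39), Ldb2 (1.12) and Sox5 (0.919), with Fezf2 and Crym without a peak. The order is thus the same in both libraries. Neighbours such as Etv1 and Bcl11b differ by far less than the replicates of either gene do, and so do Fezf2 and Crym in replicate 2 by less than their counting intervals. Of the 43 TSSs of the 8 genes, 23 had a peak within 500 bp in replicate 2 and 18 in replicate 1.

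Of the 63 replicate 2 peaks, 15 overlapped a peak of replicate 1 by at least 1 bp: 8 of 16 promoter peaks and 7 of 47 others. In the other direction, 15 of 16 replicate 1 peaks had a partner. Over the whole libraries, 27469 pairs were shared, out of 66512 peaks in replicate 2 and 29700 in replicate 1. The 15 shared peaks had a median signal of 1.89 in replicate 2, and the 48 without a partner 0.811. Among those 48, 19 overlapped the longer list of replicate 1 and 27 had no position with an FDR of 0.05 or less there. On the median, the peaks that replicate 1 lacks are thus the weaker ones. Replicate 1 also had the fewer tags, if 1 step is 1 tag, and the part of depth in the difference was not tested. Cut to the length of the replicate 1 list by taking the highest signals, replicate 2 had 19 peaks in the 8 windows, against 16 in replicate 1. Of those 19 peaks, 13 had a partner in replicate 1.

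At the shared peaks, signal in replicate 2 was above that in replicate 1 in 14 of 15, with the second Tle4 peak equal to 3 digits. The log2 ratio of replicate 2 to replicate 1 had a median of 0.68, or 1.60-fold, with a range of 0.00 to 1.28. Over all 27469 shared peaks of the libraries it was 0.69, with quartiles of 0.45 and 0.91. Of these, 26479, or 96.4%, had the higher signal in replicate 2.

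**Figure D4:**
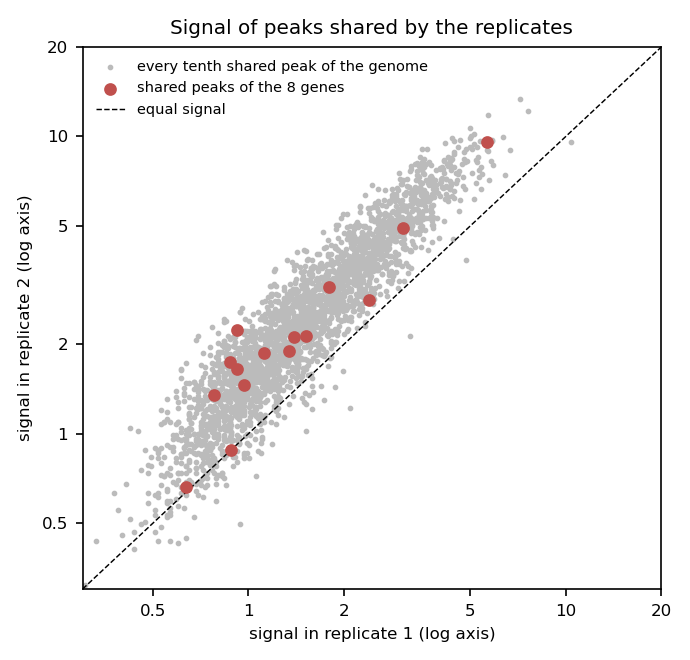
Signal of shared peaks in replicate 1 (x) and replicate 2 (y), both log axes, for the 15 shared peaks of the 8 genes (red) and 1 in 10 of the shared peaks of the genome (grey); the dashed line marks equal signal. The red points lie within the grey cloud, 14 of 15 above the line, as do 96.4% of all shared peaks.

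Of 20 other genes of the deep layers, 16 had a promoter peak in replicate 2 and 10 in replicate 1, with a median of 5 and 1 peaks per window and 133 and 36 peaks in all (ratio 3.69). Otx1, a homeobox gene of deep-layer neurons, had 21 peaks in replicate 2 and 0 in replicate 1. In all, 7 of the 20 genes had peaks in replicate 2 and 0 in replicate 1, as Fezf2 alone of the 8 genes did. So did 3 of the 16 upper-layer genes and 6 of the 15 factors that act on or with the 8 genes. Among markers it was 2 of 7 cortical, 2 of 8 of other regions and organs, 3 of 8 interneuron, and 2 of 6 of glia and vessels. The share of all protein-coding genes was 10.6%. Tbr1, the T-box factor of corticothalamic neurons, had 15 and 10, and Zfpm2, a zinc-finger cofactor of the same neurons, 15 and 7. Each of the 20 deep-layer genes had a peak in replicate 2.

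Upper-layer genes, whose neurons project within the cortex, had a promoter peak in 16 of 16 genes in replicate 2 and 10 of 16 in replicate 1. Their windows held 123 and 49 peaks, a ratio of 2.51. Pou3f3 had 16 peaks in replicate 2 and 1 in replicate 1, Cux1 15 and 11, and Pou3f2 15 and 12; all are homeodomain factors of upper-layer neurons. Promoter peaks in replicate 2 were therefore as complete in the upper-layer list as in the 8 genes, and the tissue holds both kinds of neuron. Factors that act on or with the 8 genes had a promoter peak in 12 of 15 genes in replicate 2 and 7 of 15 in replicate 1, with 78 and 38 peaks in all (ratio 2.05). Tbr1 had the values above, and Sox4, a SoxC factor that acts on Fezf2, had 10 and 8. The lists differ in gene length and share some genes, Tbr1, Bcl11a and Lhx2 among them, and no test was set between them.

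**Figure D5:**
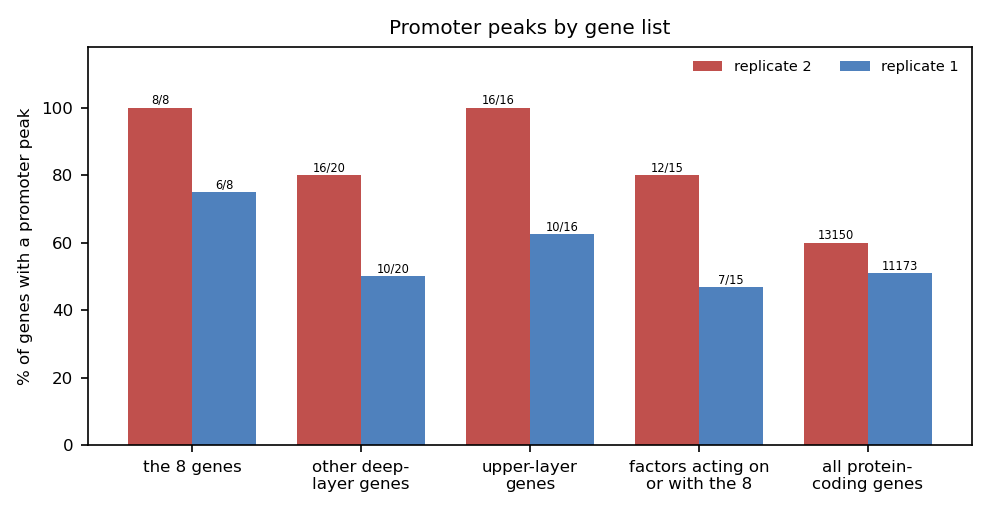
Percent of genes with a promoter peak, replicate 2 left of replicate 1, in the 8 genes, 3 other gene lists and all protein-coding genes, with the number of genes above each bar. The 8 genes (100% and 75%) and the upper-layer genes (100% and 62.5%) are at the top, and all protein-coding genes are at 60.0% and 51.0%.

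At the peaks of the 8 genes, the median ratio of observed to expected CpG was 0.42 in replicate 2 and 0.71 in replicate 1. Over all peaks it was 0.38 and 0.61. These ratios were not counted over the called bounds of each peak: their highest value was 1.14 in replicate 2, where a called peak reached 1.65. Promoter peaks had 0.59 and 0.77, and other peaks 0.40 and 0.51. A footprint was present in 79.4% of the peaks in replicate 2 and 68.8% in replicate 1, against 83.6% and 83.9% of all peaks.

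For 18 motifs, recognition sequences were searched on both strands in the 200 bp around each peak midpoint, as exact letters. SOX sequences (ACAAAG or ACAATG) stood in 13 of 63 replicate 2 peaks, or 20.6% (95% Wilson interval 12.5 to 32.2), against 17.9% of all peaks. NFI sites (TTGGCA) stood in 22.2% (13.7 to 33.9), against 14.5%, and the SP sequence (GGGCGGG) in 4.76% (1.63 to 13.1), against 13.3%. Of these, the interval for the SP sequence alone leaves out the share of all peaks, by a small margin, and in replicate 1 the interval for it (1.11 to 28.3) holds the 20.7% of all peaks. Neighbouring peaks of 1 gene are not independent. The BCL11 sequence (TGACCA) stood in 3.17% (0.875 to 10.9), against 7.75%. The letters searched for CRE (TGACGTCA), ETS (CCGGAAG), NRF1 (GCGCATGC), ROR (TAGGTCA) and POU (ATGCAAAT) were in 0 of the 63 windows, which at 63 peaks leaves shares of up to 5.75%. The other letters searched were AGGTGTG (T-box), TATTTATA or TAAAAATA (MEF2), CAGATGG (bHLH E-box), TGANTCA (AP-1), GTGGGCG (EGR), CCACNAGGG (CTCF), TAATTA (homeobox), GTTGCCAT (RFX) and TGACAG (MEIS), and they stood in 1.59% to 17.5% of the peaks. Each of their intervals holds the share of all peaks.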

How the data were processed

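DNase-seq of mouse frontal cortex was analysed from deposited files on mm10, per the labels; replicates were not pooled. The authors deposited, for each peak, a signal normalized to read depth. The deposited footprint score is 0.01 in every row and ranks nothing. The deposited cleavage table of the authors holds an FDR, a p-value adjusted for many positions, and ends at 0.05. No source used here names the aligner, the callers or their thresholds.

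Of 2 peak lists per library, the shorter was used. Gene positions came from GENCODE M21 and sequence from GRCm38, on 21 chromosomes. Windows were gene bodies with flanks of 10 kb; a shared peak overlaps by at least 1 bp; promoter windows reach 500 bp to each side of a TSS. The code (Python 3.11.15, numpy 2.4.6, pandas 2.3.3, scipy 1.17.1, matplotlib 3.10.9, samtools 1.23.1) was tested on simulated data. Intervals cover counting error only. Lratd2 was found under an older symbol.

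All 8 genes are named, and of the other cortical gene lists the 3 genes with the most replicate 2 peaks and up to 3 with no peak. Marker lists are given as counts, with Alb named as an exception. A gene so selected is not reported here. Abca14 and Igsf5 are named for their overlap, and Bcl11a and Lhx2 as genes shared by lists. Dlx5, Foxa1 and Cdk5r1 are named outside this rule, for FDR cover like that of Fezf2. The 8 genes, the lists and the motifs were chosen with earlier results of these data known. Alternatives were other promoter windows, coding TSSs, peak midpoints, the longer list, equal list lengths, the upper 50% of peaks by signal, gene windows of 0 and 50 kb, 50% overlap, footprints in peaks and leaving out each replicate.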

Additional observations from a re-analysis of the deposited data

How the results depend on the processing

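With 2 libraries of 1 group, no test could be made and nothing can be said of conditions. No paired analysis was possible because the labels give 1 group. Of 55 recomputed values over all 8 genes, 44 stayed within 1.5 times the reported count, or within 0.1 of the reported log2 ratio. Another 11 moved beyond it, and 0 changed sign. The 55 include the values without 1 replicate, which repeat those of single libraries and say nothing of stability. The tolerance is also wide for small counts, and takes a fall from 6 to 4 genes as unmoved. The counts of single genes were less stable: of 64 recomputed values, 34 stayed within 1.5 times and 30 moved. The longer lists gave 137 peaks in replicate 2 and 49 in replicate 1, with 42 replicate 2 peaks shared. The 50% of peaks with the highest signal left 21 and 7, with 7 shared, and equal list lengths left 19 in replicate 2. Requiring 50% overlap of both peaks left 9 shared. Footprints inside peaks numbered 134 in replicate 2 and 35 in replicate 1, and the gene body alone left 38 in replicate 1. Promoter peaks in both replicates were found for 4 to 6 genes over the peak lists and promoter windows tried. Without 1 replicate the count of genes with a promoter peak was 6 to 8, the peak counts were 63 and 16, and the footprint counts 238 and 73, since libraries were called separately. For Fezf2, the 50% of peaks with the highest signal left 0 peaks in replicate 2, and 50 kb flanks added 1 in replicate 1.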
